A study of Mus musculus with 3 samples.

Results

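The HOX genes encode homeodomain transcription factors that lie side by side in 4 chromosomal clusters, Hoxa, Hoxb, Hoxc and Hoxd. Members were all probe sets whose platform annotation gave exactly 1 gene symbol of the form Hoxa, Hoxb, Hoxc or Hoxd followed by a number. This gave 37 probe sets for 37 genes, among 19938 named genes in all. The genes were grouped by cluster and by paralog number, which numbers the genes of matching position across the clusters.

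The cells were endothelial cells of the embryonic kidney at 15.5 days post coitum. They came from CD-1 mice carrying the reporter Tg(TIE2GFP)287Sato, in which the Tie2 (Tek) promoter drives green fluorescent protein. Kidneys were trypsinized and the cells with GFP were taken by FACS, so any cell in which this promoter was active could enter the sort. Kidneys were pooled by 4 to 5 for each sample, and the 3 arrays form a single group with no untreated or other comparison group. After a single round of amplification the RNA was read on Affymetrix Mouse Gene 1.0 ST arrays. The study describes its samples as independent, but separate litters are not mentioned in the labels, and the p-values below reflect no more than the spread among these 3 arrays.

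HOX proteins give cells of the embryo their position along the head to tail axis. Genes at one end of each cluster, with low paralog numbers, are used early and in anterior tissue, and genes at the other end, with high numbers, later and in posterior tissue, an order called collinearity. Their proteins bind DNA together with TALE homeodomain partners of the Pbx, Meis and Pknox families, and the open or silent state of the clusters is kept by trithorax and Polycomb complexes. In the kidney the HOX11 paralogs are needed for the metanephric mesenchyme to start kidney formation, and in blood vessels several HOX factors have been described as promoting or restraining the growth of new vessels.

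Values are the deposited log2 values. Each was set against a level of 100 on the raw scale, 6.64 on the log2 scale. The study used 100 in 3 samples to leave out low signals, on raw values of its own processing. Whether the deposited values share that scale is not known, so a call here is not the study's filter. A probe set was called above or below this level by limma, its p-values adjusted by Benjamini-Hochberg across the whole table of 35557, and a HOX gene has the call of its 1 probe set. Probe sets differ in affinity, so the value of a gene was compared with the level and between arrays, and not with the values of other genes. Many deposited values are exactly equal between arrays. Arrays 1 and 2 held the same value for 29 of the 37 HOX genes (78.4%) and for 63.5% of all genes, and all 3 arrays held the same value for 12 HOX genes. In arrays 1 and 2, 26 of the 37 HOX values were also shared with another probe set, as were 13 in array 3. A standard deviation of 0.00 is therefore not a measure of replicate precision, and limma's p-values rest in part on these ties. Each call was for this reason also made with 1 spread shared by every probe set, here called the pooled spread (SD 0.49, 95% half-width of a mean of 3 arrays 0.56 on the log2 scale). Its variance is the mean over all 35557 probe sets, including the 19.7% with a spread of 0, so ties lower it as well. It was used with 71114 degrees of freedom, as if every probe set had this spread. The very small pooled p-values below rest on that and not on many arrays.

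Of the 37 HOX genes, 19 were above the level, 13 were below it and 5 lay on neither side. Over all named genes, 41.6% were above and 41.6% were below, against 51.4% and 35.1% of the HOX genes. With the pooled spread 13 HOX genes were above and 9 below, where 36.0% of all genes were above and 32.5% below. The 12 genes above by both spreads were Hoxa4, Hoxa5, Hoxa7, Hoxa9, Hoxa10, Hoxb3, Hoxb4, Hoxb5, Hoxb6, Hoxb7, Hoxd4 and Hoxd10. The 7 genes below by both were Hoxa13, Hoxc5, Hoxc10, Hoxc11, Hoxc12, Hoxd1 and Hoxd13. With no test, 21 HOX genes were at least 100 in every array and 16 were under 100 in every array, so no HOX gene crossed the level between arrays. The same held for 47.9% and 45.3% of all genes. The count of genes above was 14, 13 and 20 without array 1, 2 or 3, and the count below was 8, 8 and 15. Among 129 other homeobox genes, the count above went from 41 to 28, 24 and 45 in these settings. Their count below went from 56 to 35, 36 and 75. The shares of all genes in these settings are not given here.

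**Figure D1:**
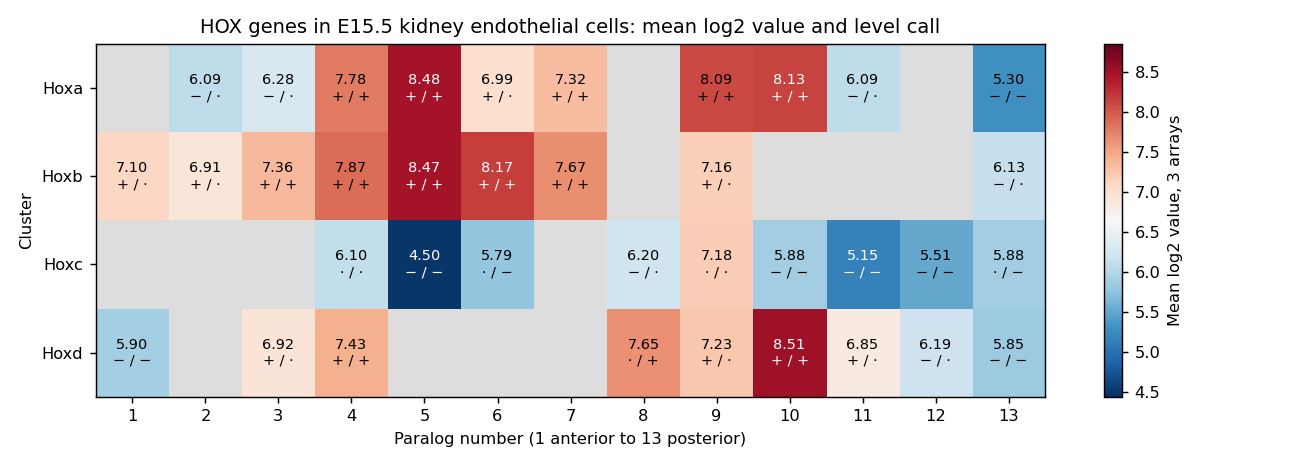
Mean log2 value of each HOX gene over the 3 arrays, by cluster (rows) and paralog number (columns). Grey squares hold no gene analysed here. Under each value, plus, minus and dot stand for above, below and neither side of the level of 100, first by limma and then with the pooled spread. The colour is centred on the level and values of different genes are not on a common scale of abundance. The Hoxc row holds no plus sign, and the columns for numbers 12 and 13 hold none either.

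The clusters differed in how many genes were above the level, which is given as counts with no test between clusters. Over all named genes 41.6% were above and 41.6% below by limma (36.0% and 32.5% with the pooled spread). In Hoxa, 6 of 10 genes were above and 4 below (5 and 1 with the pooled spread). In Hoxb, 8 of 9 were above and only Hoxb13 was below. The Hoxb count was 5 above with the pooled spread, and 4 without array 1 and without array 2. In Hoxd, 5 of 9 were above and 3 below (3 and 2 with the pooled spread, and 1 below without array 1 or array 2). In Hoxc none of 9 genes was above, 5 were below and 4 were on neither side. The count of Hoxc genes below was 6 with the pooled spread, 2 without array 1 or array 2, and 8 without array 3. Hoxc9 was the only Hoxc gene at 100 or more in the arrays, and it was so in all 3.

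By position, 4 of 7 anterior genes (numbers 1 to 3), 9 of 14 central genes (4 to 8) and 6 of 16 posterior genes (9 to 13) were above, and 3, 2 and 8 were below. These are 57.1%, 64.3% and 37.5% above and 42.9%, 14.3% and 50% below. Over all named genes 41.6% were above and 41.6% below by limma. The posterior share above and the anterior share below thus lay near those of all genes. With the pooled spread 1 anterior, 9 central and 3 posterior genes were above, and 1, 2 and 6 were below. Of all named genes 36.0% were above and 32.5% below with that spread. Without array 1, and likewise without array 2, 1 anterior gene was above and 4 posterior genes were below, and without array 3, 4 central genes were below. The shares of all genes with an array left out are not given here. Within the posterior genes the limma calls changed with the number. At number 9, 3 of 4 genes were above and all 4 were at least 100 in every array. At number 10, 2 of 3 were above, and at number 11 only Hoxd11 of 3. At number 12 both genes were below, and at number 13, 3 of 4 were below and Hoxc13 was on neither side. With the pooled spread the counts above at numbers 9, 10 and 11 were 1, 2 and 0, so they did not fall step by step. Hoxb9, Hoxd9 and Hoxd11, each equal in all 3 arrays, lost their calls there. The pooled counts below at numbers 9 to 13 were 0, 1, 1, 1 and 3.

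**Figure D2:**
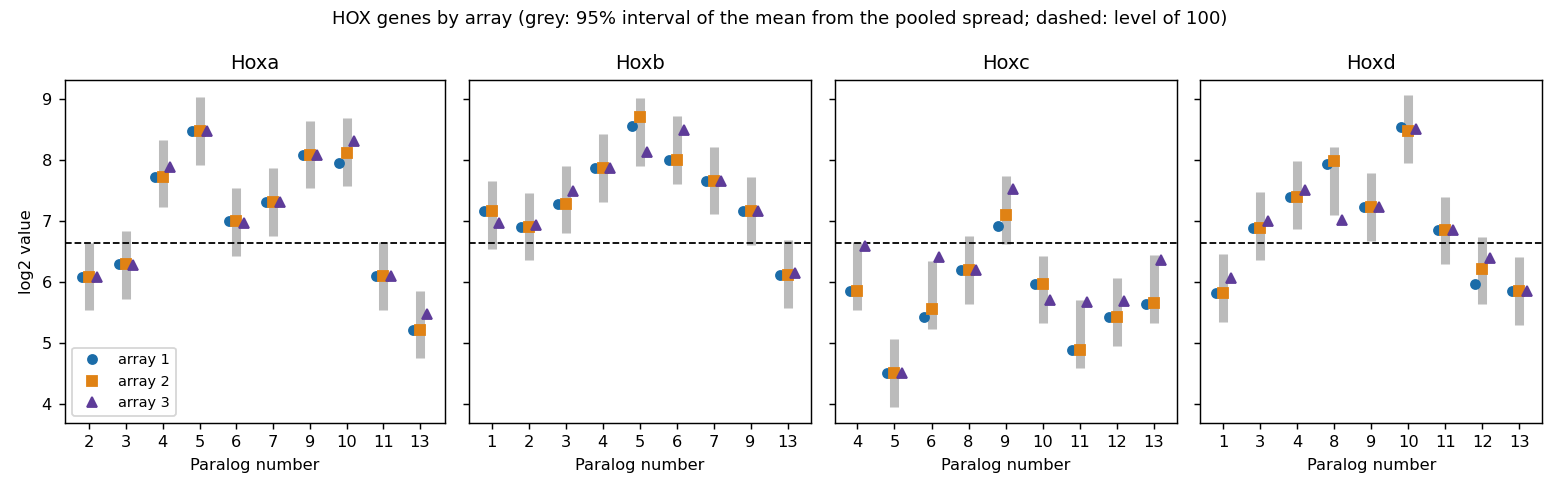
Log2 value of every HOX gene in arrays 1, 2 and 3 (circles, squares and triangles), by paralog number within each cluster. Grey bars are 95% intervals of the mean from the pooled spread and the dashed line is the level of 100. The points above the line lie at numbers 4 to 10 in Hoxa, 1 to 9 in Hoxb and 3 to 11 in Hoxd. In Hoxc the points of Hoxc9 alone lie above it.

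Among the anterior genes, those of Hoxb were above the level. Hoxb1, which gives a segment of the hindbrain its identity, was at 7.16, 7.16 and 6.96 in arrays 1 to 3 (mean 7.10 ± 0.11, SD, n = 3; limma adjusted p = 0.0169, and 0.151 with the pooled spread). Hoxb2, also a hindbrain gene, was at 6.90, 6.90 and 6.93 (6.91 ± 0.02; adjusted p = 0.00186, and 0.428 pooled). Hoxb3 is known to promote capillary formation. It was at 7.28, 7.28 and 7.50 (7.36 ± 0.12; adjusted p = 0.00832, and 0.0191 pooled), above the level by either spread. Hoxd3, described as switching endothelial cells to an invasive, growing state, was at 6.89, 6.89 and 6.99 (6.92 ± 0.06; adjusted p = 0.0128, and 0.401 pooled). Its call, like those of Hoxb1 and Hoxb2, was lost with the pooled spread, although all 3 arrays of each were over the level. Calls of Hoxb1, Hoxb3 and Hoxd3 were also lost without array 1 and without array 2. Below the level were Hoxa2 (mean 6.09), which patterns the second pharyngeal arch, Hoxa3 (6.28), needed for thymus and parathyroid glands, and Hoxd1 (5.90). Of these only Hoxd1 was below with the pooled spread, and its limma call was lost without array 1 and without array 2.

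Among the central genes, numbers 4 to 7 of Hoxa and Hoxb were all above. Hoxa4 was at 7.73, 7.73 and 7.89 (7.78 ± 0.09; limma adjusted p = 0.0018). Hoxb4, known for expanding blood stem cells, was at 7.87 in all 3 arrays (adjusted p = 2.1e-05, and 3.5e-05 pooled). Hoxd4 was at 7.39, 7.39 and 7.51 (7.43 ± 0.07; adjusted p = 0.00212, and 0.00912 pooled). These 3 number 4 genes were above by both spreads, and the fourth, Hoxc4, was on neither side at a mean of 6.10 ± 0.42.

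Hoxa5, which is needed in lung development and has been described as restraining vessel growth, was at 8.47, 8.47 and 8.48 (8.48 ± 0.01; limma adjusted p = 1.74e-05, and 3.28e-10 pooled). Hoxb5 is known to raise expression of the VEGF receptor gene Kdr in endothelial precursors. It was at 8.56, 8.72 and 8.13 (8.47 ± 0.30; adjusted p = 0.0075, and 4e-10 pooled), lowest in array 3 but over the level in each, and its limma call was lost without array 1 and without array 2. The third gene of this number, Hoxc5, was at 4.50 in every array (adjusted p = 1.38e-05 for below, and 1.94e-13 pooled). It was the only HOX gene still below when the level was lowered to 50.

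Hoxa6 was at 6.99, 6.99 and 6.98 (6.99 ± 0.01; limma adjusted p = 0.000419, and 0.288 pooled), close to the level. Hoxb6 was at 8.01, 8.01 and 8.49 (8.17 ± 0.28; adjusted p = 0.00897, and 2.01e-07 pooled), highest in array 3, and its limma call was also lost without array 1 and without array 2. Hoxc6 was at 5.42, 5.55 and 6.41 (5.79 ± 0.54; adjusted p = 0.0847 for below, and 0.00412 pooled). Its range over arrays of 0.99 was the widest of the 37 genes, with array 3 apart from the other two and still under the level. Hoxa7 was at 7.32 in all arrays (adjusted p = 4.59e-05, and 0.0271 pooled). Hoxb7, whose promoter is a common driver of transgenes in the ureteric bud, was at 7.67 in all arrays (adjusted p = 2.54e-05, and 0.000597 pooled). At number 8, Hoxd8 was at 7.94, 8.0 and 7.02 (7.65 ± 0.55; adjusted p = 0.0734, and 0.000704 pooled). Array 3 was 0.95 lower than the mean of arrays 1 and 2, and Hoxd8 was above by limma too without array 3. Hoxc8, a gene of brachial motor neurons, was below at 6.20, a call lost with the pooled spread.

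Among the posterior genes, Hoxa9 takes part in blood stem cells and in endothelial migration. It was at 8.09 in all 3 arrays (limma adjusted p = 1.74e-05, and 8.27e-07 pooled). Hoxb9 was at 7.16 in all arrays (adjusted p = 6.96e-05, and 0.0936 pooled) and Hoxd9 at 7.23 in all arrays (adjusted p = 5.76e-05, and 0.0571 pooled). Hoxc9 was at 6.92, 7.11 and 7.53 (7.18 ± 0.31; adjusted p = 0.0817, and 0.081 pooled). All 4 paralogs of number 9 were thus over 100 in every array, and by both spreads Hoxa9 alone was called above.

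Hoxa10, known for its part in the uterus and in blood cells, was at 7.96, 8.11 and 8.32 (8.13 ± 0.18; limma adjusted p = 0.00402, and 4.12e-07 pooled), a limma call lost without array 2. Hoxd10, described as keeping vessels in a resting state and also used in kidney stroma and the lumbar spinal cord, was at 8.54, 8.47 and 8.52 (8.51 ± 0.03; adjusted p = 0.000115, and 1.56e-10 pooled). The third paralog, Hoxc10, was below at 5.88 ± 0.15 (adjusted p = 0.00913, and 0.00996 pooled), and lost its limma call without array 1 and without array 2. When the level was raised to 200 (7.64 on the log2 scale), the genes still above by limma were Hoxa5, Hoxa9, Hoxb4 and Hoxd10. This is not a list of the highest means. Hoxb4, equal in all 3 arrays, kept its call at 7.87, while Hoxb5 (8.47), Hoxb6 (8.17) and Hoxa10 (8.13) lost theirs. The pooled spread was not used at that level.

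The HOX11 genes, which act together in the metanephric mesenchyme, had a single member above the level. Hoxd11 was at 6.85 in all arrays (limma adjusted p = 0.000388, and 0.561 pooled), 0.20 over the level and the nearest to it of the genes above. Hoxa11 was below at 6.09 in all arrays, a call lost with the pooled spread (adjusted p = 5.05e-05, and 0.0662 pooled). Hoxc11 was at 4.89, 4.89 and 5.67 (5.15 ± 0.45; adjusted p = 0.0211, and 3.53e-07 pooled), below by both, with the limma call lost without array 1 and without array 2. With the pooled spread no HOX11 gene was above.

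The genes of number 12 and 13, which pattern the limb ends, tail and urogenital outlet, lay under the level in every array. Hoxa13, needed for digits and the genital tract, was at 5.21, 5.21 and 5.48 (5.30 ± 0.15; limma adjusted p = 0.00342, and 4.85e-06 pooled). Hoxd13, its partner in the limb, was at 5.85 in all arrays (adjusted p = 2.75e-05, and 0.0076 pooled). Hoxb13, a gene of the tail and prostate, was at 6.12, 6.12 and 6.15 (6.13 ± 0.02; adjusted p = 0.000397, and 0.0874 pooled), so its call was lost with the pooled spread. Hoxc13, a hair follicle gene, had a mean of 5.88 ± 0.41 and was below with the pooled spread but not by limma on the 3 arrays as deposited. By limma it was below without array 3, after quantile normalization and after a median shift. Hoxc12 was at 5.51 ± 0.15, with its limma call lost without array 1 and without array 2, and Hoxd12 was at 6.19 ± 0.22. Hoxd12 had a limma adjusted p of 0.0497 and lost its call with the pooled spread and without any one of the arrays.

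Array 3 stood apart from arrays 1 and 2 over the whole table (SD over all probe sets 2.08, 2.06 and 1.84 in arrays 1 to 3). In it the 15 pan-endothelial markers were lower in 15 of 15 genes, with medians of 10.15, 10.14 and 8.82, and the 8 macrophage markers were higher in 7, with medians of 6.48, 7.48 and 7.89. The HOX genes had medians of 6.90, 6.90 and 6.96. In array 3, 19 HOX genes were higher than the mean of arrays 1 and 2, 12 were equal and 6 were lower, with a median difference of 0.01 (0.14 after quantile normalization and -0.03 after a median shift). Only Hoxd8, Hoxb5 and Hoxc10 were lower by over 0.2, and 12 genes were higher by over 0.2. Of the 19 HOX genes called above, 9 were higher in array 3, 7 equal and 3 lower. Over all 8295 genes called above, 1436 were higher, 2172 equal and 4687 lower, with a median of -0.05. The 6155 named genes with means in the range of those 19 HOX genes (6.85 to 8.51) were taken whatever their call. Of these, 20.3% were higher, 24.7% equal and 55.0% lower, with a median of -0.05. Hoxd8 and Hoxc9 also have means in that range, but limma put them on neither side. The Hoxc genes had a median difference of 0.51, with 6 of 9 higher. Among the 6609 genes with means between those of the lowest and highest HOX gene below the level, 64.0% were higher and the median difference was 0.12. The 13 HOX genes called below had a median difference of 0.00, with 6 higher, 5 equal and 2 lower. Over all 8290 genes called below, 4940 were higher, 2886 equal and 464 lower, with a median of 0.08. The 6609 genes were taken by mean alone, whereas a limma call can drop genes that array 3 moved far. Hoxc4, Hoxc6 and Hoxc13, higher by 0.74, 0.92 and 0.71, lie in that range of means but were on neither side. The 13 genes are therefore not a like set to the 6609. The part of cell makeup or array quality in these differences was not tested. Across the 37 HOX genes, which are not replicates, Pearson's r was 0.998 between arrays 1 and 2, 0.947 between 1 and 3, and 0.95 between 2 and 3, over values that share the ties described above. Over all 19938 named genes r was 0.994, 0.956 and 0.964 for the same pairs.

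**Figure D3:**
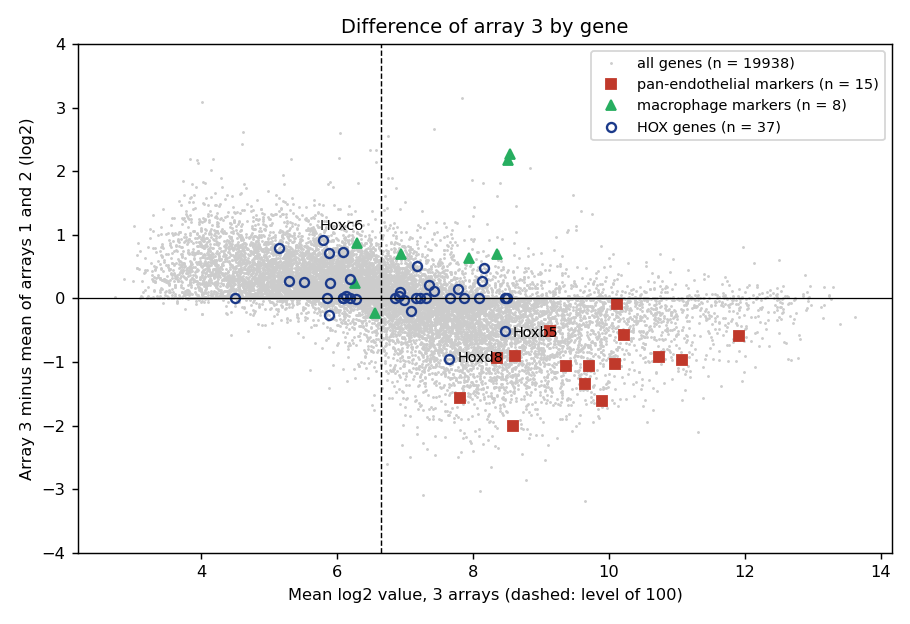
Difference of array 3 from the mean of arrays 1 and 2 (log2) against the mean over 3 arrays, for all 19938 named genes (grey), pan-endothelial markers (red squares), macrophage markers (green triangles) and HOX genes (blue circles). The dashed line is the level of 100, and 1 gene lies outside the vertical axis. The pan-endothelial markers all lie under 0. The HOX genes have a median of 0.01, with 19 genes over 0, 12 at 0 and 6 under it. That median was 0.14 after quantile normalization and -0.03 after a median shift. Hoxd8 and Hoxb5 are labelled among the lower genes and Hoxc6 among the higher ones.

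These are bulk values of sorted cells, in which fewer cells of a type and less RNA per cell cannot be told apart. The sort was rich in endothelial RNA, with 13 of the 15 pan-endothelial markers above the level, among them the adhesion molecule Pecam1 (10.09 ± 0.60), the endothelial cadherin Cdh5 (11.08 ± 0.59), the angiopoietin receptor Tek (10.74 ± 0.53) and the sialomucin Emcn (11.92 ± 0.34). With the pooled spread all 15 were above. Other lists were also partly above the level, as were 41.6% of all named genes by limma (36.0% with the pooled spread). Below the level were 41.6% of all named genes (32.5% pooled). Whether a lineage was present in the sort was not tested. For capping mesenchyme 5 of 10 markers were above and 3 below (4 and 1 with the pooled spread), with Six2 at 7.37, Cited1 at 7.28, Sall1 at 6.80 and Itga8 at 7.81. For renal stroma 6 of 10 were above and 3 below (4 and 2 pooled), with Foxd1, a stromal transcription factor, at 7.87 ± 0.54, Pdgfra at 6.41 and Tbx18 at 4.99. For ureteric bud 2 of 10 were above and 6 below (0 and 3 pooled), with Ret at 6.15, Wnt11 at 6.49, Wnt9b at 7.01 and Krt8 at 7.01. These are the lineages that border the vessels in the developing kidney. For mural cells 1 of 6 was above and 5 below (0 and 3 pooled), with Pdgfrb at 5.87, Rgs5 at 5.89, Cspg4 at 6.17 and Acta2 at 7.21. For macrophages 1 of 8 was above and 0 below (4 and 0 pooled), with Csf1r at 6.95, Ptprc at 6.30, Cd68 at 8.36 and Aif1 at 8.54. For blood progenitors 2 of 8 were above and 3 below (3 and 1 pooled), with Kit at 8.56, Runx1 at 6.15 and Tal1 at 7.66. For red cells 3 of 4 were above and 0 below (2 and 0 pooled), with Hba-x at 7.47, Hbb-y at 9.23 and Alas2 at 7.13. Capping mesenchyme, stroma and ureteric bud also use HOX genes, and their part in the HOX values was not tested. No cell type of origin can be assigned to a HOX gene from these arrays.

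As a family to read the HOX counts beside, 41 of 129 other homeobox genes were above the level (31.8%) and 56 were below (24 and 30 with the pooled spread; 28 and 35 without array 1, 24 and 36 without array 2, 45 and 75 without array 3). Those with means over 9 were Meis2 at 10.53, Hhex at 9.91, a factor of blood and endothelial development, and Zeb1 at 9.67, a repressor of epithelial genes. The first 3 by symbol were Alx1 at 6.19 on neither side, Alx4 at 6.09 below and Barhl1 at 6.79 above. Cdx1 was at 6.75 in all arrays and above, while Cdx2 (6.05) and Cdx4 (4.45) were below. The Cdx genes are homeobox neighbours in descent to the HOX genes and switch on central HOX genes in the early embryo.

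The partners and regulators of HOX genes were counted in lists chosen with earlier results of these data known. Over all named genes, 41.6% were above and 41.6% below by limma (36.0% and 32.5% with the pooled spread). Of the TALE cofactors, 4 of 8 measured genes were above and 1 below, with Meis2 at 10.92, 10.62 and 10.06, Pbx2 at 7.88 ± 0.20, Pbx3 at 7.73 ± 0.44 and Meis1 at 6.97 ± 0.13. Pknox1 was below at 6.45, and Pbx4 was on neither side at 7.16 ± 0.24. The TALE count above was 1 without array 1 and 0 without array 2, and the count below was 3 without array 3 and 0 with the pooled spread. Trithorax activators, which keep HOX chromatin open, were above in 11 of 12 genes and below in none (5 above without array 1 and 6 without array 2). Kmt2a, the methyltransferase MLL1, was at 8.88 ± 0.36, its cofactor Men1 at 7.95 ± 0.25, Kmt2b at 7.33 ± 0.15 and the shared subunit Dpy30 at 11.33 ± 0.12. Polycomb genes, which silence HOX chromatin, were above as well. In complex 2, 9 of 11 were above and none below (6 above without array 2), with the methyltransferase Ezh2 at 10.51 ± 0.30, Ezh1 at 7.05, Eed at 7.58 ± 0.44 and Rbbp7 at 11.38 ± 0.04. In complex 1, 8 of 10 were above and none below, with the ubiquitin ligases Rnf2 at 8.24 ± 0.05 and Ring1 at 7.07, Bmi1 at 8.24 and Phc3 at 8.63. Without array 3, 1 gene of each Polycomb complex was below.

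Of the upstream patterning genes, 6 of 15 were above and 7 below (5 and 4 with the pooled spread, and 3 and 3 without array 1 or array 2). The limma counts are 40% and 46.7%, near the 41.6% above and 41.6% below of all named genes. Those above were Cdx1, the retinoic acid receptors Rara (7.75 ± 0.24), Rarb (8.75 ± 0.28) and Rarg (7.37 ± 0.04), the retinoic acid synthesizing enzyme Aldh1a2 (7.59 ± 0.09) and Gmnn (9.13 ± 0.54), which encodes a replication licensing inhibitor. Cyp26a1, which breaks retinoic acid down, was below at 5.55 ± 0.17. Retinoic acid is a known inducer of anterior HOX genes.

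Of 10 endothelial genes linked to HOX factors in earlier work on other cells, 4 were above and 3 below (7 and 1 with the pooled spread, 0 above without array 1 or array 2, and 2 above without array 3). By limma 40% were above, near the 41.6% of all named genes (36.0% with the pooled spread). Kdr was at 9.89 ± 0.96 and Ephb4, a receptor of venous endothelium linked to Hoxa9, at 8.25 ± 0.35. Nos3, the endothelial nitric oxide synthase, was on neither side at 7.53 ± 0.39, and the adhesion gene Sele was below at 6.54. Of 5 kidney genes linked to the HOX11 factors, Six2, which maintains nephron progenitors, was above at 7.37 ± 0.12 and Pax2 at 6.96 ± 0.02, while Gdnf, the ureteric bud growth factor, was below at 6.31 ± 0.15 and Eya1 at 6.27. Itga8 was on neither side at 7.81 ± 0.56. These 5 kidney genes were thus 40% above and 40% below by limma, near the shares of all named genes. With the pooled spread Six2 and Itga8 were above, Pax2 was on neither side and none was below. Without array 1 the counts were 2 above and 1 below, and without array 2 they were 1 and 1.

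**Figure D4:**
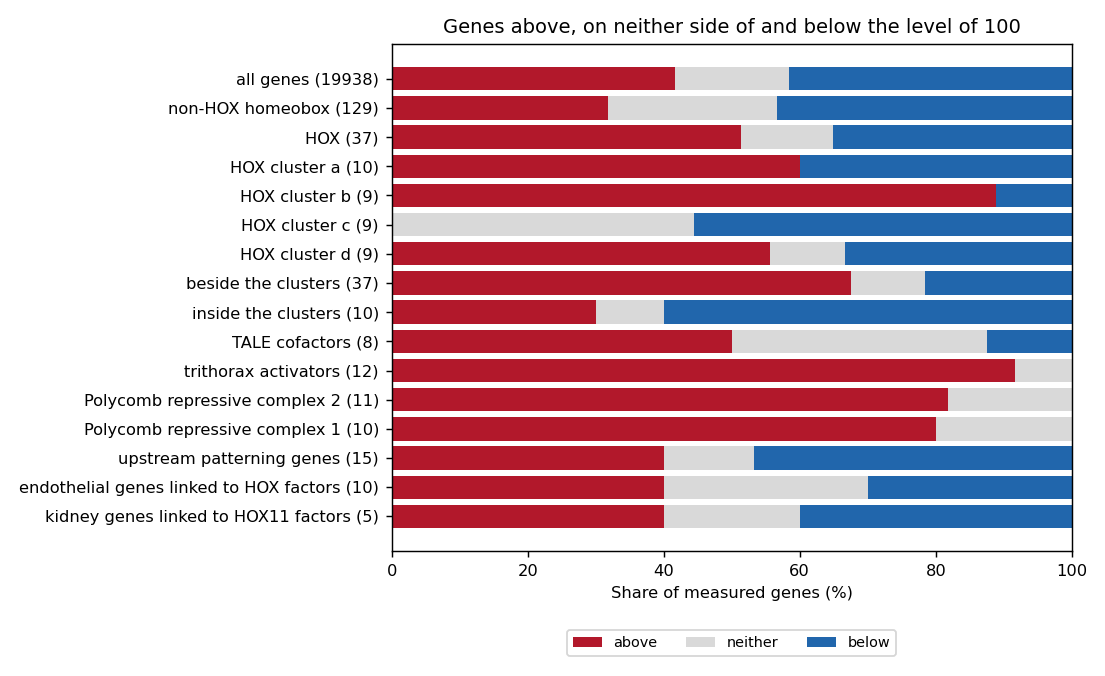
Share of measured genes above (red), on neither side of (grey) and below (blue) the level of 100 by limma, with the number of genes in parentheses. The bar of all genes holds 41.6% above and 41.6% below. Cluster c holds no red, and the trithorax and Polycomb lists hold no blue.

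The clusters also hold noncoding genes, of which 10 of the 31 that RefSeq places between the outermost HOX genes had a probe set of their own. Of these, 3 were above and 6 below (2 and 4 with the pooled spread, and 1 and 3 without array 1 or array 2). Over all named genes the limma shares were 41.6% above and 41.6% below. Above were the long noncoding RNA 5730596B20Rik of the Hoxa cluster at 6.84 in all arrays, Hoxd3os1, an antisense RNA of the Hoxd cluster, at 6.80 ± 0.17 over 2 probe sets that lay on opposite sides of the level, and Mir615. The probe set of Mir615, a microRNA gene within the span of Hoxc5, was at 7.80, 7.80 and 8.38 (8.0 ± 0.33; limma adjusted p = 0.016), and all 3 arrays were over the level. The gene around it, Hoxc5, was below in all 3, and every other Hoxc gene but Hoxc9 lay under 100 as well. Of the other microRNA genes, Mir10a (3.68 ± 0.47, within the span of Hoxb3), Mir10b (4.06 ± 0.66, within Hoxd3 and Hoxd4), Mir196b (6.13) and Mir196a-2 (4.79) were below and Mir196a-1 (6.40 ± 0.62) was on neither side. Hoxb3 and Hoxd4 themselves were above by both spreads. Total RNA on these arrays does not separate a mature microRNA from its precursor or from the transcript of the gene around it. Spans of Hoxa3, Hoxb3 and Hoxd3 in RefSeq also overlap other cluster genes, and probe positions were not used here.

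The 5 mature microRNAs below are shown because they are the products known to repress HOX transcripts, or, for Mir615, the product of the Hoxc5 locus whose probe set was above. Sequences and GRCm38.p6 positions are from RefSeq, 5′ to 3′, with the seed (bases 2 to 8) in capitals.
mmu-miR-10a-5p (chr11:96317186-96317208, plus strand): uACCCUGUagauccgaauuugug
mmu-miR-10b-5p (chr2:74726074-74726096, plus strand): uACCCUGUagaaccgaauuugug
mmu-miR-196a-5p (chr11:96265187-96265208 and chr15:102973365-102973386, plus strand): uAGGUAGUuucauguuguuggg
mmu-miR-196b-5p (chr6:52230129-52230150, minus strand): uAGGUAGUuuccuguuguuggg
mmu-miR-615-3p (chr15:103014969-103014990, plus strand): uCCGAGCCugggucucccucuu
The miR-10 pair shares the seed ACCCUGU and the miR-196 pair the seed AGGUAGU, while miR-615-3p has a seed of its own among them. The identical miR-196a-5p comes from a gene in the Hoxb cluster and a gene in the Hoxc cluster, whose probe sets had values of 6.40 and 4.79. The 22 bases of miR-615-3p are 63.6% G and C, against 40.9% in miR-196a-5p and 43.5% in miR-10a-5p.

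Outside the clusters, 37 of the 40 nearest protein-coding genes (5 on each side of each cluster) were measured, and 25 were above and 8 below (25 and 5 with the pooled spread; 16 above without array 1, 13 without array 2 and 21 without array 3). By limma 41.6% of all named genes were above and 41.6% below. Of the neighbours above, Cbx3, Atp5g1, Tarbp2, Atf7 and Atp5g2 had several probe sets, any of which could give the call, whereas each HOX gene had 1. Beside Hoxc, where no HOX gene was above, 7 of 9 neighbours were, including the heterochromatin protein gene Cbx5 at 10.50 ± 0.47, the coatomer gene Copz1 at 9.07 ± 0.77, the mitochondrial ATP synthase gene Atp5g2 at 9.97 ± 1.14 and the transcription factor gene Atf7 at 8.61 ± 0.32. The other 3 were Tarbp2 at 7.06, Npff at 7.70 and Calcoco1 at 7.86. Beside Hoxa 5 of 10 were above, beside Hoxb 7 of 10 and beside Hoxd 6 of 8. Beside Hoxa these were Hnrnpa2b1, an RNA binding protein gene, at 12.06 in all arrays, the heterochromatin protein gene Cbx3 at 9.33 ± 0.45, Skap2 at 9.48, Tax1bp1 at 9.57 ± 0.23 and Creb5 at 7.74 ± 0.09. Beside Hoxb they were Cbx1, of the same heterochromatin family as Cbx3 and Cbx5, at 9.53, Snf8 at 9.20, Ube2z at 8.04, Atp5g1 at 9.44, Snx11 at 7.53, Nfe2l1 at 9.21 and Copz2 at 9.03. Beside Hoxd they were Chn1 at 8.0, Atf2 at 8.47, Atp5g3 at 12.33, Mtx2, a mitochondrial import gene, at 8.09, Nfe2l2 at 9.58 and Agps at 8.53. The homeobox genes Evx1 and Evx2, which lie at the posterior ends of Hoxa and Hoxd, were below at 6.28 ± 0.01 and 6.57. Their calls were lost with the pooled spread.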

How the data were processed

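RNA from 3 pools of sorted cells was measured on 1 array each. The authors deposited a table of log2 values for 35557 probe sets. Per the submitters' notes, Affymetrix Expression Console was used, version unstated. The sources used here do not give how probes were summarized. For its own analysis the study used RMA in GeneSpring and the low-signal filter of 100 in 3 samples. Names came from the platform annotation (21789 with 1 symbol, 1621 with several, 12147 unnamed here), with symbols updated through RefSeq gene identifiers of GRCm38.p6 (21698 matched). A probe set that names Hoxb7 and Hoxb8 together was left out. The mean of each gene is over its probe sets.

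From the deposited log2 values, each probe set was tested against log2(100) with limma 3.58.1 (R 4.3.3; intercept-only fit, eBayes, one-sided in each direction, Benjamini-Hochberg over all probe sets, threshold 0.05). A gene counted as above when at least 1 probe set was, and as below when every one was. The scripts were tested on simulated data that held no tied values. In the deposited values 19.7% of probe sets had a spread of 0 over the 3 arrays, so that test does not cover the effect of ties. Members and lists were chosen with earlier results of these data known. All HOX genes were named, with the value in every array for those above the level, those with the 3 widest ranges over arrays and the highest and lowest of each cluster. Of other lists the first 3 measured and the highest were named, and of genes in and beside the clusters those above. Further genes named were chosen after their values were seen. Alternatives were the pooled spread, a trend in eBayes, other levels, quantile normalization, a median shift, a filter on low values, the highest probe set of a gene, and leaving out each array. With 3 arrays, their number limits the precision. Of the 37 HOX genes, 21 (56.8%) had a promoter window in the RefSeq table used, so a check of promoter base composition was void, and no protein sequences were used here.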

Additional observations from a re-analysis of the deposited data

How the results depend on the processing

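No paired analysis was possible because the arrays form a single group. The alternatives moved counts near the level most. At a level of 50, 29 HOX genes were above and 1 below, with 2 Hoxc and 9 Hoxd genes above, 0 Hoxa, 0 Hoxb, 1 Hoxc and 0 Hoxd below, 7 anterior and 11 posterior above, and 0 anterior, 1 central and 0 posterior below. Hoxb13 (0.49 on the log2 scale over that level), Hoxd13 (0.21), Hoxa2, Hoxa3, Hoxa11, Hoxc8, Hoxd1 and Hoxd12 went from below to above. At a level of 200, 4 were above and 26 below, with 2 Hoxa, 1 Hoxb and 1 Hoxd above, 5 Hoxb, 8 Hoxc and 7 Hoxd below, 0 anterior, 2 central and 2 posterior above, and 7 anterior and 7 central below. There Hoxa6 (-0.66), Hoxa7 (-0.33), Hoxb1 (-0.55), Hoxb2 (-0.73), Hoxb3 (-0.29), Hoxb9 (-0.48), Hoxd3 (-0.72), Hoxd4 (-0.21), Hoxd9 (-0.41) and Hoxd11 (-0.80) changed direction. Of the 129 other homeobox genes, 104 were above and 10 below at a level of 50, and 7 above and 110 below at 200. The shares of all genes at these levels are not given here. With the pooled spread, 5 Hoxb and 3 Hoxd genes were above and 1 Hoxa and 0 Hoxb below, with 1 anterior and 3 posterior above and 1 anterior below. A filter that tested only probe sets of at least 100 in an array left 0 HOX genes below in every group by construction. Cluster c had 1 gene above, Hoxc9, under that filter, at the level of the 95th percentile of olfactory and vomeronasal receptor genes (6.41), after a median shift and at 100 or more in each array with no test. The last of these, chosen after seeing the data, also gave 8 Hoxc and 4 central genes below.

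Leaving out each array in turn gave 8 to 15 HOX genes below, 4 to 8 Hoxb genes above, 2 to 8 Hoxc and 1 to 2 Hoxd genes below, 1 to 4 anterior genes above, 2 to 4 central genes below and 4 to 8 posterior genes below. Without array 3, 50.6% of probe sets had a spread of 0, so this setting was also run with the pooled spread, chosen after seeing the data. It gave 11 HOX genes above, with 1 Hoxa gene below, 4 Hoxb above and 0 below, 3 Hoxd above, 0 anterior above and 1 below, and 3 posterior above and 5 below. Quantile normalization, the eBayes trend, the highest probe set and testing only probe sets with a symbol kept each of these counts within 1.5 times, apart from the median difference of array 3 given in the report. The causes of these changes were not tested.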
